A study of Mus musculus with 18 samples.

Results

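The genes analyzed here were 10 genes that encode enzymes of asparagine, serine, proline and mitochondrial one-carbon synthesis. They were chosen by gene symbol from the 40800 genes of the count table. They were *Asns* (asparagine), *Phgdh*, *Psat1* and *Psph* (serine), *Shmt2*, *Mthfd2*, *Mthfd1l* and *Aldh1l2* (the mitochondrial folate pathway), and *Aldh18a1* and *Pycr1* (proline). RNA was sequenced from whole lenses of knock-in mice on a C57BL/6J background in which arginine 49 of αA-crystallin was replaced by cysteine (*Cryaa*-R49C) or arginine 120 of αB-crystallin by glycine (*Cryab*-R120G). Lenses of the *Cryaa* line were taken at 2 days of age and those of the *Cryab* line at 14 days, and each line had heterozygous (het) and homozygous (homo) mutants and age-matched C57BL/6J controls (WT), giving 6 groups of 3 libraries and 18 libraries in all. Each library was made from a pool of several lenses, and the line and the age changed together, so that their effects cannot be told apart. The mutations lie in the endogenous genes, and a point mutation does not remove the transcript, so the level of *Cryaa* or *Cryab* does not check the genotype labels.

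Cells make serine from the glycolytic intermediate 3-phosphoglycerate in a short pathway, and serine then supplies one-carbon units to folate inside mitochondria, from which formate is exported for purine and methionine synthesis. Asparagine is made from aspartate and glutamine, and proline from glutamate. Many of these genes are known targets of ATF4, a transcription factor whose translation rises when the initiation factor eIF2α is phosphorylated, as happens during endoplasmic reticulum stress or amino acid shortage. ATF4 with a C/EBP partner binds composite elements whose core is written here as TGATGNAA. The lens fibre cell holds a very high concentration of crystallin protein and is normally one of the most protein-dense cells of the body.

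The promoters of these genes were searched for 4 motifs, because 6 of the genes rose together in the mutant lenses described below. RefSeq (GRCm38.p6) gave windows of 300 bases, from 250 bases before to 50 bases after the transcription start, for 9 of the 10 genes; *Aldh1l2* was not in the table. On either strand, TGATGNAA was found in *Asns* and *Pycr1*, against 3.97% of 32851 mouse promoters. The E-box CACGTG was found in *Aldh18a1* (7.15% of all promoters), the cyclic AMP response element TGACGTCA in none of the 9 (1.79%), and the GC box GGGCGG in 6 (35.7%). Below are the 150 bases before the start of *Asns* and *Pycr1*, which share TGATGNAA and moved in opposite directions, and of *Mthfd2* and *Aldh18a1*, which rose without it. All 4 genes are on the minus strand, sequences are written 5′ to 3′ in the direction of transcription, and capitals mark the motifs (CCGCCC is GGGCGG on the other strand).
Asns, chr6:7693210-7693359: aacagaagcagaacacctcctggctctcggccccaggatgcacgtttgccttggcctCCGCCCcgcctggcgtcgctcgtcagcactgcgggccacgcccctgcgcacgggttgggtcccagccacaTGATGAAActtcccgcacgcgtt
Pycr1, chr11:120643749-120643898: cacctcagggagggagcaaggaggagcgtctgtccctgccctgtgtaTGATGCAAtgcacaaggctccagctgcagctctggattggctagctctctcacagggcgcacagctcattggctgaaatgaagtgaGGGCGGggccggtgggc
Mthfd2, chr6:83317605-83317754: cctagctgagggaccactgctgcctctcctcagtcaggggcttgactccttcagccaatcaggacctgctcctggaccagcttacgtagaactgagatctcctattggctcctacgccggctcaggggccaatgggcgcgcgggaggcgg
Aldh18a1, chr19:40588464-40588613: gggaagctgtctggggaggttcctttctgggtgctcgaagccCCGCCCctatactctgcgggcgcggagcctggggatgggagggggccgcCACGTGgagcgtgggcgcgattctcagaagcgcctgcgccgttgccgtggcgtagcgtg
The TGATGAAA of *Asns* began 23 bases and the TGATGCAA of *Pycr1* 103 bases before the start, and the CACGTG of *Aldh18a1* 59 bases before it. A match of letters does not show binding, and the lack of one says only that these letters are not in the window.

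Library totals ranged from 14272174 to 29639719 counts. Levels are given as CPM, counts scaled to a common library size with TMM, a method that takes most genes as unchanged, and its factors ran from 1.2 to 2.27 in the *Cryaa* libraries and from 0.488 to 0.774 in the *Cryab* libraries. The *Cryaa*-R49C-homo replicate 1 library stood apart: the nuclear RNA Gm42418 took 2.53% of its counts, against 24.5% and 42.6% in replicates 2 and 3 of that group, and its summed lens fibre markers were 168820 CPM against 80993 and 58368 CPM. Of the 11 lens fibre markers, *Lim2* was at 0 in all 18 libraries. *Cryaa* itself was at 101315, 103292 and 69970 CPM in *Cryaa*-WT and at 92956, 38261 and 31385 CPM in *Cryaa*-R49C-homo (log2 fold change -0.76, adjusted p = 0.15 in the test described next). *Cryab* was at 44212, 46210 and 32936 CPM in *Cryab*-WT and at 30541, 32284 and 35831 CPM in *Cryab*-R120G-homo (-0.32, adjusted p = 0.943).

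Of the 10 genes, 6 rose and 1 fell in *Cryaa*-R49C-homo lenses against *Cryaa*-WT lenses. *Mthfd2*, *Asns*, *Aldh1l2*, *Aldh18a1*, *Mthfd1l* and *Psat1* rose, *Pycr1* fell, and *Phgdh*, *Psph* and *Shmt2* did not pass the threshold. The test was edgeR's quasi-likelihood test with Benjamini-Hochberg adjustment over the 13938 genes that passed a filter on low counts, and the threshold was an adjusted p of 0.05. All 10 genes passed that filter. Across all tested genes 9.79% passed the threshold, 4.87% higher and 4.91% lower, and 7 of the 10 did so here. The 10 genes were chosen with earlier results of these data known, so this is not an independent comparison. The homo and WT libraries did not overlap for 7 of the 10, against 24.5% of all tested genes. Fewer cells of a type and less RNA per cell cannot be told apart in pooled whole lenses. The 18 libraries are described as separate pools, and p-values measure the spread between these pools.

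**Figure D1:**
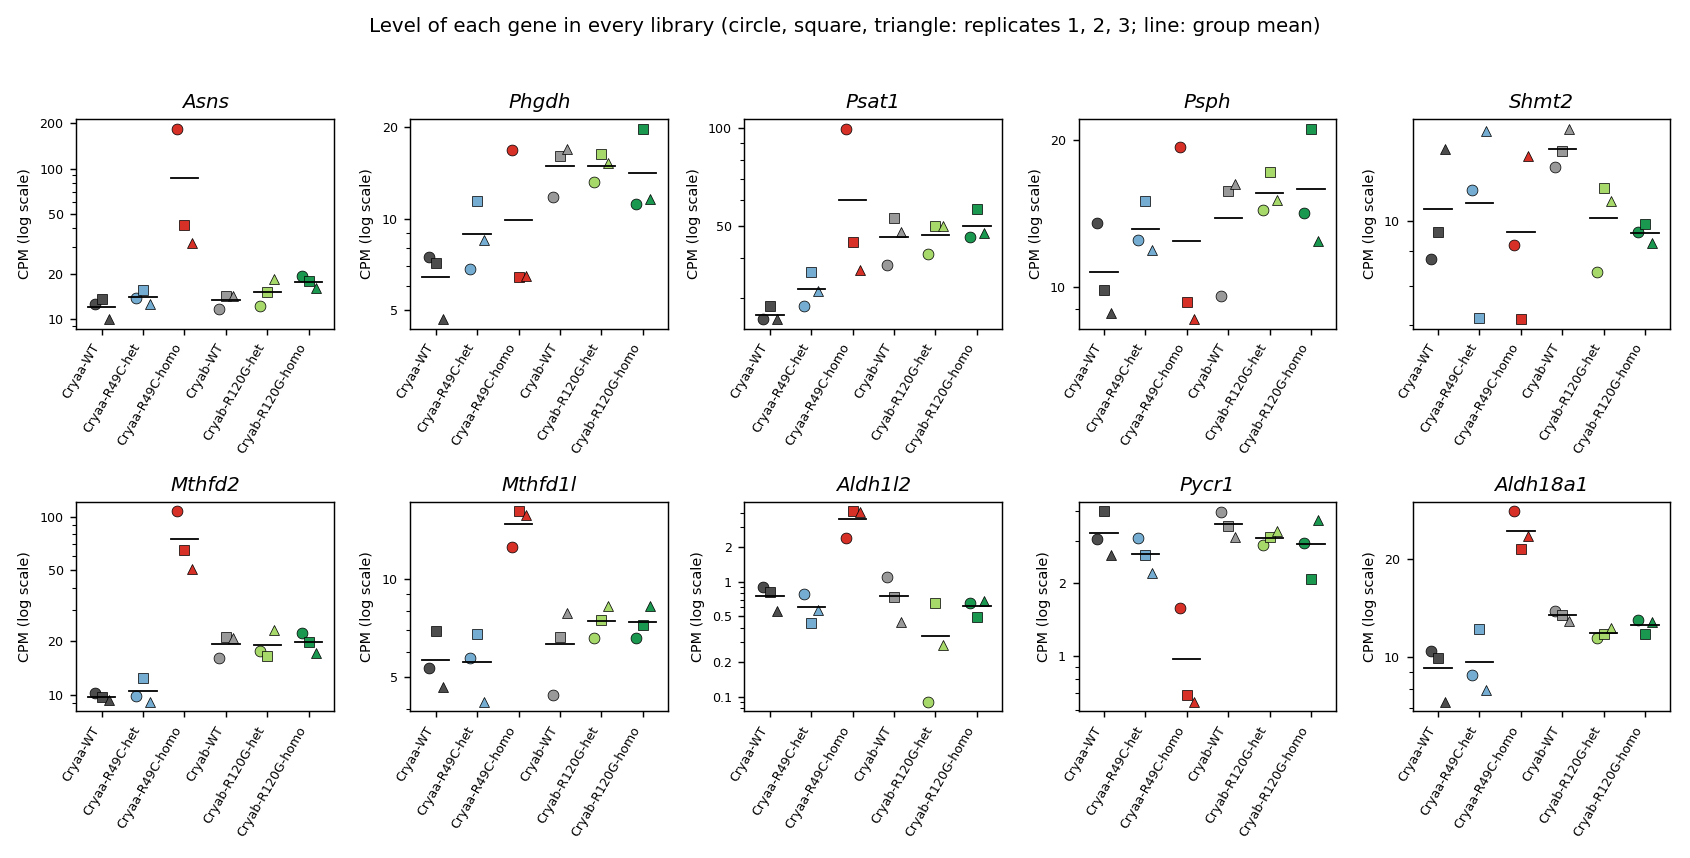
CPM of each of the 10 genes (log axis) in every library of the 6 groups, with circles, squares and triangles for replicates 1, 2 and 3 and a line at the group mean. *Mthfd2* in *Cryaa*-R49C-homo lay between 51 and 107 CPM, above the 9.39 to 10.2 CPM of *Cryaa*-WT, while in the *Cryab* groups it lay between 16 and 23.1 CPM.

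*Asns* encodes asparagine synthetase, which makes asparagine from aspartate with glutamine as the nitrogen donor, and lies on chromosome 6 (7675169 to 7693254, minus strand, GRCm38). Its level was 12.5, 13.5 and 9.95 CPM in *Cryaa*-WT, 13.8, 15.6 and 12.6 CPM in *Cryaa*-R49C-het, and 184, 42.2 and 32.2 CPM in *Cryaa*-R49C-homo. Each homo library was above every WT and het library, and replicate 1 was far above the other homo libraries. The log2 fold change against WT was 2.85 (SE 0.47, adjusted p = 0.000697, edgeR). Without *Cryaa*-R49C-homo replicate 1 it was 1.64 (SE 0.20, adjusted p = 2.06e-06), so the size of the rise depended on that library and the call did not.

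The serine pathway begins with *Phgdh* (phosphoglycerate dehydrogenase), continues with *Psat1* (phosphoserine aminotransferase) and ends with *Psph* (phosphoserine phosphatase). *Psat1* was at 25.9, 28.3 and 25.8 CPM in *Cryaa*-WT and at 99.7, 44.7 and 36.6 CPM in *Cryaa*-R49C-homo, with no overlap. Its log2 fold change was 1.18 (SE 0.27, adjusted p = 0.00705, edgeR), and 0.61 (adjusted p = 0.0169) without homo replicate 1. Fitted on the 6 libraries of these groups alone, the log2 fold change was 1.22 and the adjusted p was 0.121.

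*Phgdh* was at 7.46, 7.16 and 4.66 CPM in *Cryaa*-WT and at 16.8, 6.44 and 6.46 CPM in *Cryaa*-R49C-homo. Replicate 1 was the highest of the 6 libraries, whereas the other homo libraries lay within the WT range. The log2 fold change was 0.63 (95% interval -0.04 to 1.31, adjusted p = 0.244), and 0.01 without homo replicate 1. Scaled by library size alone it was 1.17 (adjusted p = 0.0287). *Psph* was at 13.5, 9.86 and 8.83 CPM in WT and 19.4, 9.3 and 8.59 CPM in homo. Replicate 1 was again the highest of the 6 libraries, and homo replicate 3 was the lowest. Its log2 fold change was 0.22 (95% interval -0.37 to 0.81, adjusted p = 0.704), and -0.26 without homo replicate 1. Exons of *Psph* and of *Cct6a* on the other strand share 452 of 4329 bases, and the strand setting of the counting is not stated in the sources used here.

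In the mitochondrial folate pathway, *Shmt2* (serine hydroxymethyltransferase) takes the one-carbon unit from serine, *Mthfd2* (methylenetetrahydrofolate dehydrogenase and cyclohydrolase) oxidizes it, *Mthfd1l* releases it as formate, and *Aldh1l2* oxidizes it to carbon dioxide. *Mthfd2* was at 10.2, 9.69 and 9.39 CPM in *Cryaa*-WT, 9.86, 12.5 and 9.12 CPM in *Cryaa*-R49C-het, and 107, 65.2 and 51 CPM in *Cryaa*-R49C-homo. Each homo library was far above every WT and het library, and the order of the homo libraries was that of *Asns*. The log2 fold change was 2.93 (SE 0.26, adjusted p = 7.29e-08), and 2.57 without homo replicate 1.

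*Mthfd1l* was at 5.33, 6.92 and 4.66 CPM in *Cryaa*-WT and at 12.5, 16.1 and 15.7 CPM in *Cryaa*-R49C-homo (log2 fold change 1.38, SE 0.24, adjusted p = 0.000427). *Aldh1l2*, the least abundant of the 10 per length in WT, was at 0.895, 0.81 and 0.561 CPM in WT, from 21, 24 and 16 counts, and at 2.42, 4.12 and 4.03 CPM in homo, from 110, 131 and 106 counts (log2 fold change 2.21, SE 0.41, adjusted p = 0.000962). For both genes the homo libraries lay above the WT libraries, and replicate 1 was the lowest homo library, the reverse of its place for *Asns*, *Psat1* and *Mthfd2*. Exons of *Aldh1l2* share 1056 of 7503 bases with *D10Wsu102e* on the other strand. The authors counted only unambiguous reads. How reads on the shared bases were treated depends on the strand setting, which the sources used here do not state. *Shmt2*, which supplies this pathway, was at 8.78, 9.62 and 12.8 CPM in WT and 9.21, 7.13 and 12.5 CPM in homo, and the groups overlapped (log2 fold change -0.12, 95% interval -0.61 to 0.38, adjusted p = 0.823). Its exons share 32 of 3109 bases with *Ndufa4l2* on the other strand.

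The genes of proline synthesis moved in opposite directions. *Aldh18a1* encodes the enzyme that starts proline synthesis from glutamate, and *Pycr1* encodes a mitochondrial reductase that completes it. *Aldh18a1* was at 10.5, 9.96 and 7.32 CPM in *Cryaa*-WT and at 27.9, 21.4 and 23.5 CPM in *Cryaa*-R49C-homo, with no overlap (log2 fold change 1.39, SE 0.20, adjusted p = 7.9e-05). *Pycr1* was at 3.07, 3.98 and 2.63 CPM in WT and at 1.59, 0.691 and 0.646 CPM in homo, again with no overlap. Its log2 fold change was -1.69 (SE 0.32, adjusted p = 0.00111), and -2.26 without homo replicate 1.

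**Figure D2:**
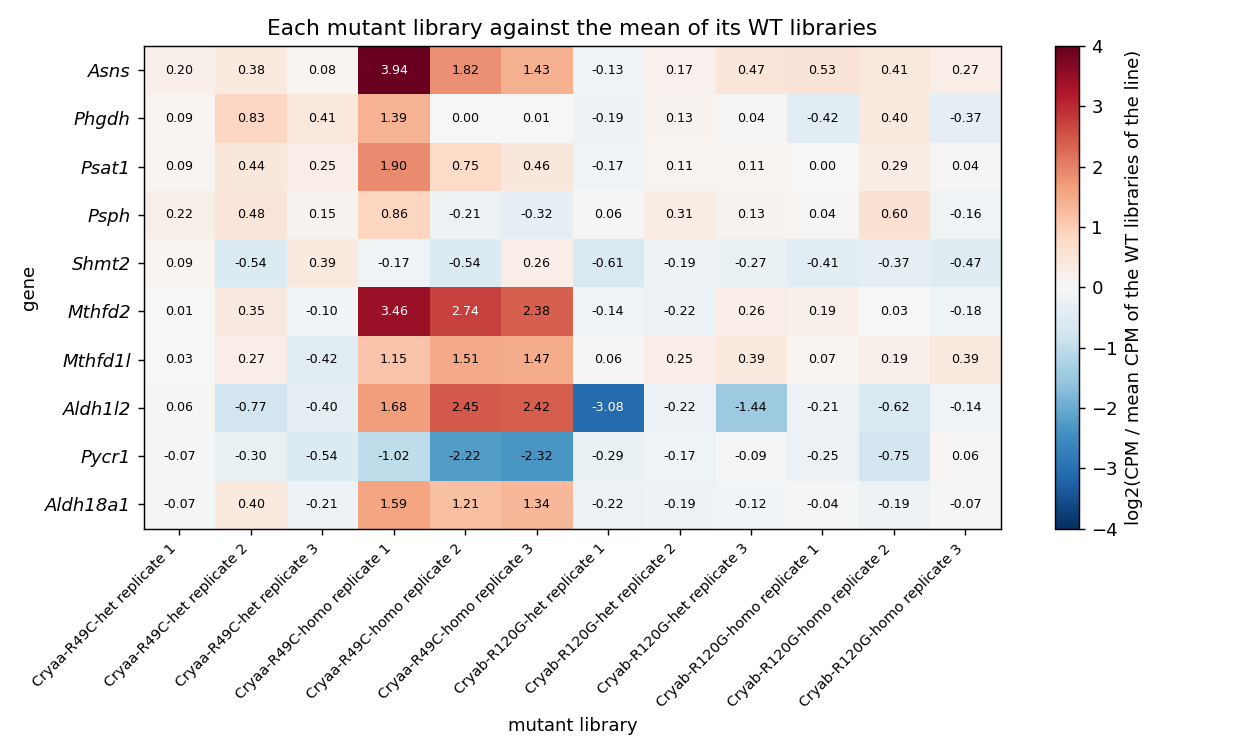
Log2 of the CPM of each gene in each of the 12 mutant libraries over the mean CPM of the 3 WT libraries of its line, in color. *Asns* stood at 3.94 in *Cryaa*-R49C-homo replicate 1 and at 1.82 and 1.43 in replicates 2 and 3, whereas *Pycr1* stood at -1.02, -2.22 and -2.32, and *Aldh1l2* at -3.08 in *Cryab*-R120G-het replicate 1 rests on 1 count.

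Thus the homo libraries differed from each other gene by gene as well as from WT. Against the WT mean, homo replicate 1 was the highest of the 3 for *Asns*, *Phgdh*, *Psat1*, *Psph*, *Mthfd2*, *Aldh18a1* and *Pycr1*, and the lowest for *Mthfd1l* and *Aldh1l2*. The fit without that library called the same 6 genes higher and *Pycr1* lower, while over all tested genes the calls rose from 1364 to 3085 of 13938.

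In lenses from *Cryaa*-R49C-het mice, 0 of the 10 genes passed the threshold against *Cryaa*-WT in edgeR or DESeq2, and 0 had an unadjusted p under 0.05 in edgeR, where 0.00717% of all tested genes passed the threshold and 5.09% the unadjusted level. The log2 fold changes lay between -0.31 (*Aldh1l2*, 95% interval -1.19 to 0.56) and 0.48 (*Phgdh*, 95% interval -0.20 to 1.15). For *Mthfd2* it was 0.10 (95% interval -0.40 to 0.60) and for *Asns* 0.23 (95% interval -0.70 to 1.16). *Psat1* was the only 1 of the 10 whose het and WT libraries did not overlap, at 28.4, 36 and 31.6 CPM in het, where 21.9% of all tested genes did not overlap. The het and homo comparisons share their WT libraries.

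Against *Cryaa*-R49C-het, 7 of the 10 genes passed the threshold in *Cryaa*-R49C-homo, compared with 8.32% of all tested genes, and the libraries of these 7 genes did not overlap (22% of all tested genes). *Mthfd2* (log2 fold change 2.83), *Asns* (2.62), *Aldh1l2* (2.53), *Aldh18a1* (1.33), *Mthfd1l* (adjusted p = 0.000521, edgeR) and *Psat1* (0.92) rose, and *Pycr1* fell (adjusted p = 0.0077). *Asns* stood at 1.41 without homo replicate 1 (adjusted p = 1.13e-05). *Psat1* was near the threshold (adjusted p = 0.0372) and was not called without homo replicate 1 (0.35, adjusted p = 0.158) or without any 1 of the 3 het libraries (adjusted p from 0.0717 to 0.137). It was also not called with the likelihood-ratio test (adjusted p = 0.0741), with only the groups compared (0.205) or with the replicate block (0.0529). *Pycr1* was not called without homo replicate 2 (-1.20, adjusted p = 0.057), with library size alone (0.0602) or with only the groups compared (0.0921).

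None of the 10 genes passed the threshold in the *Cryab* line. In *Cryab*-R120G-homo against *Cryab*-WT, 0 of 10 passed in edgeR or DESeq2 and 0 had an unadjusted p under 0.05 in edgeR, where 0.0502% of all tested genes passed the threshold (0.0287% higher and 0.0215% lower) and 6.1% the unadjusted level. *Mthfd2* was at 16, 21.2 and 20.9 CPM in *Cryab*-WT and at 22.1, 19.8 and 17.1 CPM in *Cryab*-R120G-homo (log2 fold change 0.02, 95% interval -0.48 to 0.52). *Aldh18a1* was at 13.9, 13.5 and 12.9 CPM in WT and at 13, 11.8 and 12.8 CPM in homo (-0.10, 95% interval -0.52 to 0.33). These intervals end below the rises of the same genes in the *Cryaa* line. *Asns* was at 11.6, 14.2 and 14.2 CPM in WT and at 19.3, 17.8 and 16.1 CPM in homo (0.41, 95% interval -0.54 to 1.36). *Asns* and *Shmt2* (-0.42, 95% interval -0.93 to 0.09) were the 2 genes whose groups did not overlap, *Asns* higher and *Shmt2* lower in homo, where 9% of all tested genes did not overlap.

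In *Cryab*-R120G-het against *Cryab*-WT, 0 of 10 passed in edgeR or DESeq2 (0.00717% of all tested genes in edgeR) and 0 had an unadjusted p under 0.05 in edgeR (3.82% of all tested genes). *Shmt2* and *Aldh18a1* were lower in each het library than in each WT library, at log2 fold changes of -0.35 and -0.18, where 10.1% of all tested genes did not overlap. *Aldh1l2* had the largest difference (-1.03, 95% interval -2.15 to 0.09), from 10, 11 and 6 counts in WT and 1, 10 and 4 counts in het. With 1 library left out this difference ran from -1.90 to -0.64. When homo was set against het in the *Cryab* line, 0 of 10 passed in either tool, as did 0% of all tested genes in edgeR. There 1.97% of all tested genes but 0 of the 10 had an unadjusted p under 0.05, and 6.86% but 0 of the 10 had libraries that did not overlap.

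**Figure D3:**
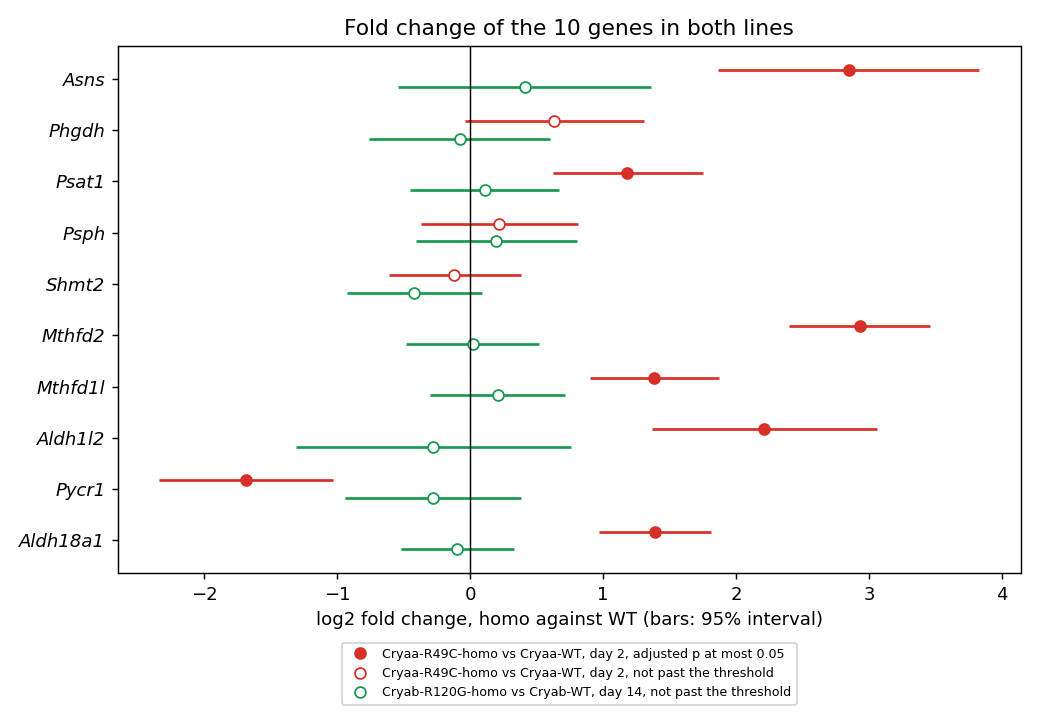
Log2 fold change of homo over WT for the 10 genes in the *Cryaa* line at day 2 (red) and the *Cryab* line at day 14 (green), with 95% intervals, and filled points for an adjusted p of at most 0.05. In the *Cryaa* line 7 points are filled and in the *Cryab* line 0, and the intervals of *Mthfd2*, 2.40 to 3.46 and -0.48 to 0.52, do not meet.

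Whether the homo effect was larger in the *Cryaa* line than in the *Cryab* line was tested as an interaction. The interaction passed the threshold for 4 of the 10 genes, all higher in the *Cryaa* line, against 2.91% of all tested genes (1.16% higher), and 7 of the 10 had an unadjusted p under 0.05, against 15.4%. These were *Mthfd2* (log2 difference 2.91, SE 0.35, adjusted p = 2.83e-05), *Aldh18a1* (1.49, SE 0.29, adjusted p = 0.0043), *Aldh1l2* (2.49, SE 0.64, adjusted p = 0.0358) and *Asns* (2.44, SE 0.63, adjusted p = 0.0476). *Mthfd2* and *Aldh18a1* passed with any 1 of the 12 libraries left out. *Aldh1l2* passed only without *Cryaa*-R49C-homo replicate 1 or *Cryab*-WT replicate 3, and its adjusted p reached 0.0894 without *Cryaa*-WT replicate 3. *Asns* passed without any 1 of the *Cryaa*-R49C-homo libraries or without *Cryab*-WT replicate 1, and reached an adjusted p of 0.125 without *Cryaa*-WT replicate 3. Its difference was 1.23 (adjusted p = 0.00353) without *Cryaa*-R49C-homo replicate 1. It was not called with library size alone (adjusted p = 0.0693) or with only the groups compared (adjusted p = 0.138).

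*Mthfd1l* (1.18, adjusted p = 0.0633), *Pycr1* (-1.41, adjusted p = 0.102) and *Psat1* (1.07, adjusted p = 0.157) did not pass, so that a difference between the lines was not shown for them although each was called in the *Cryaa* line alone. Without *Cryaa*-R49C-homo replicate 1, *Mthfd1l* (1.29, adjusted p = 0.00978) and *Pycr1* (-1.98, adjusted p = 0.00207) passed. *Mthfd1l* also passed without *Cryab*-WT replicate 1 (1.37, adjusted p = 0.0274), and *Psat1* without *Cryaa*-R49C-homo replicate 3 (1.33, adjusted p = 0.048). *Mthfd1l* passed with DESeq2 (adjusted p = 0.0268) and with the likelihood-ratio test (0.00819), and *Pycr1* with the latter (0.00573). With the replicate number as a block, the adjusted p was 0.0389 for *Mthfd1l* and 0.0523 for *Aldh1l2* (log2 difference 2.48).

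Between the WT lenses of the lines, 3 of the 10 genes were higher at day 14 (*Cryab*-WT) than at day 2 (*Cryaa*-WT), against 23.2% of all tested genes that passed in either direction and 11.7% that were higher. *Phgdh* was at 11.8, 16.1 and 17 CPM at day 14 (log2 fold change 1.23, adjusted p = 0.0107), *Mthfd2* was at 16, 21.2 and 20.9 CPM (0.99, adjusted p = 0.00565), and *Psat1* was at 37.9, 53.1 and 48 CPM (0.80, adjusted p = 0.0367). Each of these lay above all 3 libraries of day 2, as did *Aldh18a1* (0.54, adjusted p = 0.0603, and from 0.0286 to 0.0479 with DESeq2, the likelihood-ratio test or only the groups compared), so that 4 of the 10 did not overlap, against 43.2% of all tested genes. This comparison depended on the scaling. With library size alone the median of all tested genes was -1.61 on the log2 scale instead of -0.07, and *Phgdh*, *Mthfd2* and *Psat1* turned to -0.27, -0.56 and -0.75. Relative to the median gene they stood at 1.29, 1.05 and 0.87 with TMM and at 1.34, 1.05 and 0.87 with library size alone. *Phgdh* was not called without *Cryaa*-WT replicate 3 (adjusted p = 0.0689), and *Psat1* was called only when *Cryab*-WT replicate 1 was the library left out (adjusted p = 0.0289). Markers of other cells moved with age too: at day 14, 8 of 8 macrophage and microglia, 5 of 8 vessel and mesenchyme, 5 of 8 pigment and ciliary epithelium and 4 of 9 inner retina and Muller glia markers were lower, with 1 of the last higher. Higher were 7 of 10 lens fibre and 5 of 8 photoreceptor markers, of the 6 lens epithelium markers 1 was higher and 2 lower, and 0 of 5 tested erythroid markers was called in edgeR, with 0 at an unadjusted p under 0.05. Their part in these differences was not tested.

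Levels of different genes were compared per length with the RPKM values that the authors deposited, which are read counts scaled to gene length and library size. In *Cryaa*-WT *Psat1* had the highest RPKM of the 10 (9.37 ± 2.38, SD, n = 3), then *Shmt2* (7.03 ± 3.49), *Asns* (6.4 ± 0.754) and *Mthfd2* (5.38 ± 1.36). *Psph*, *Phgdh* and *Aldh18a1* followed at 3.94, 3.72 and 3.31 RPKM, then *Mthfd1l* (1.85 ± 0.259) and *Pycr1* (1.19 ± 0.155), and *Aldh1l2* was the lowest (0.145 ± 0.0142). The ranges of neighbours in this order overlapped down to *Aldh18a1*, so that the order within each neighbouring pair was not resolved. Those of *Mthfd1l*, *Pycr1* and *Aldh1l2* were separate. Genes further apart in the order could be separate too: *Psat1* (7.98 to 12.1) lay above *Asns* (5.92 to 7.27). In *Cryaa*-R49C-homo the order changed: *Asns* (67.8 ± 73.3, from 20.2 to 152) and *Mthfd2* (56.5 ± 29.5) had the highest means, and *Pycr1* (0.515 ± 0.345) fell below *Aldh1l2* (0.917 ± 0.186) to the lowest mean, although their ranges overlapped. *Psat1* kept the highest RPKM and *Aldh1l2* the lowest in all 3 *Cryab* groups.

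For 4 enzymes a paralogue, a related gene with its own expression, was compared, and a ratio of their counts within a library does not depend on scaling. *Mthfd2l* encodes another mitochondrial dehydrogenase of the folate pathway, and *Mthfd1*, *Aldh1l1* and *Shmt1* encode cytosolic relatives. The log2 ratio of *Mthfd2* to *Mthfd2l* was 3.96, 3.24 and 3.86 in *Cryaa*-WT and 7.89, 6.35 and 5.90 in *Cryaa*-R49C-homo, a difference of 3.03. The groups did not overlap, and homo replicate 1 had the highest ratio.

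The ratio of *Aldh1l2* to *Aldh1l1* was 0.57, -0.17 and -1.36 in *Cryaa*-WT and 0.65, 1.77 and 2.18 in *Cryaa*-R49C-homo, a difference of 1.85. For these 2 pairs the two-sided exact permutation test gave p = 0.1, the smallest that 3 libraries against 3 allow, and 0.2 after adjustment over 8 tests, so the design could not reach the threshold. The ratio of *Mthfd1l* to *Mthfd1* differed by 0.30 (exact permutation p = 0.3), since *Mthfd1* also rose, at 1.53, 2.47 and 2.24 CPM in WT and 3.77, 5.06 and 4.37 CPM in homo (log2 fold change 1.07, adjusted p = 0.0228, edgeR). The ratio of *Shmt2* to *Shmt1* differed by 0.07 (exact permutation p = 1). In the *Cryab* line the homo and WT ratios differed by 0.90 for *Mthfd2* and 0.68 for *Mthfd1l* (exact permutation p = 0.1 each, adjusted p = 0.2), and for both the groups did not overlap. They differed by 0.89 for *Aldh1l2* and -0.27 for *Shmt2* (exact permutation p = 0.4 and 1). The difference for *Shmt2* ran from -0.86 to 0.84 with 1 library left out. There the paralogues were few in counts, with 5, 9 and 13 counts of *Mthfd2l* in WT and 7, 5 and 5 in homo.

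**Figure D4:**
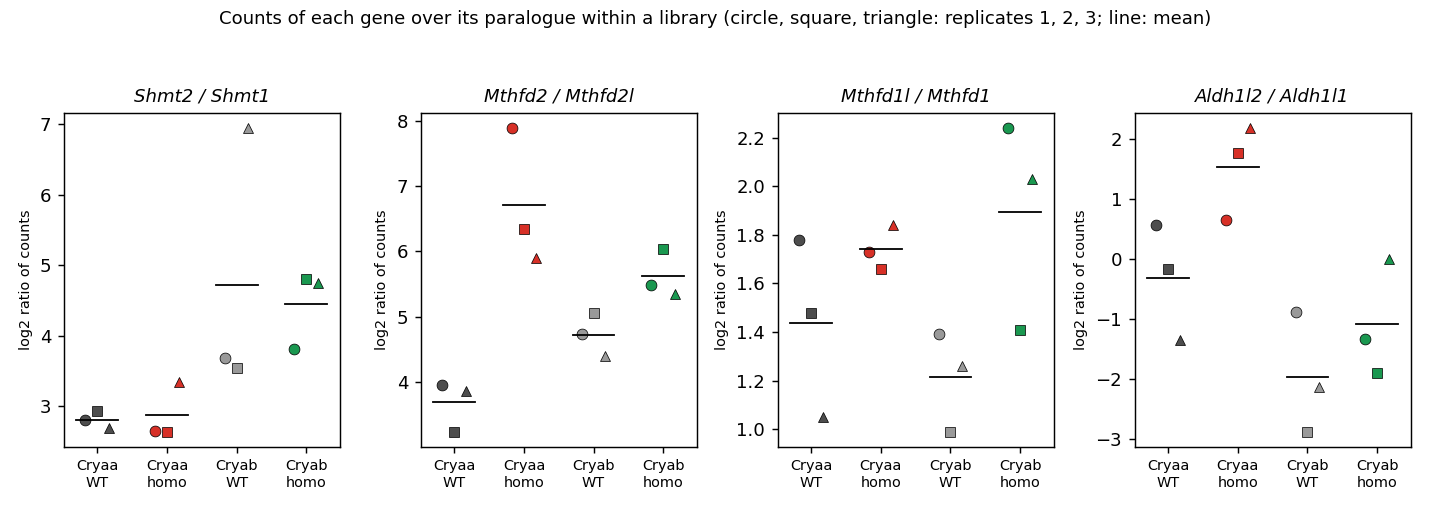
Log2 ratio of the counts of each gene to its paralogue in the WT and homo libraries of both lines, with circles, squares and triangles for replicates 1, 2 and 3 and a line at the mean. The *Mthfd2* to *Mthfd2l* ratio of *Cryaa*-R49C-homo lay between 5.90 and 7.89, above the 3.24 to 3.96 of *Cryaa*-WT, and for *Shmt2* to *Shmt1* the groups of each line overlapped.

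Other genes of these pathways were counted from lists of enzymes, carriers and regulators. Among 21 tested enzymes of folate and one-carbon metabolism, 1 rose (*Mthfd1*) and 0 fell in *Cryaa*-R49C-homo against WT, with a median log2 fold change of 0.06 beside 0.00 for all tested genes and 1.28 for the 10 genes. Among 18 enzymes of proline, glutamate and aspartate metabolism (median -0.34), 1 rose and 1 fell: *Gpt2*, a mitochondrial alanine aminotransferase, at 1.57 (adjusted p = 0.0193), and *Gls2*, a glutaminase, at -1.59 (adjusted p = 0.0356). Among 11 genes that use serine or make cysteine (median 0.02), *Cth*, the enzyme that releases cysteine from cystathionine, rose from 0.213, 0.236 and 0.666 CPM to 5.07, 3.3 and 3.19 CPM (log2 fold change 3.34, adjusted p = 0.000172). *Serinc2* fell (-1.80, adjusted p = 0.0203). Among 14 carriers of serine, glycine, proline and folate (median -0.05), *Slc1a4*, a carrier of neutral amino acids including serine, rose (1.38, adjusted p = 0.00189) and 0 fell. The background share was 9.79% of all tested genes (4.87% higher and 4.91% lower). With homo replicate 1 left out the calls were 1 higher and 3 lower for the folate list, 1 and 5 for the proline, glutamate and aspartate list, and 1 and 4 for the carriers. In that fit 3085 of all 13938 tested genes were called (1331 higher and 1754 lower). Over the fits that left out 1 of the 6 libraries the calls ran from 0 to 4, from 0 to 6, from 1 to 2 for serine and cysteine use and from 1 to 5 for the carriers. The lower ends came from fits without *Cryaa*-WT replicates 1 to 3 or homo replicates 2 and 3.

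Among 13 transcription regulators of amino acid synthesis and their partners (median 1.37), 5 rose and 1 fell, and from 5 to 7 were called with 1 library left out. *Atf4* was at 28.2, 30 and 22.6 CPM in *Cryaa*-WT and at 84.9, 95.1 and 92.6 CPM in *Cryaa*-R49C-homo (log2 fold change 1.75, adjusted p = 6.12e-06). *Ddit3*, which encodes the ATF4 target CHOP, was at 3.32, 3.92 and 3.47 CPM in WT and at 166, 109 and 110 CPM in homo (5.17, adjusted p = 1.99e-10). The homo libraries were similar to each other in *Atf4*, where replicate 1 was the lowest, although it was the highest in *Asns*. *Atf4* and *Cebpg* are not among the 3 largest rises of this list and were named after their values were seen.

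*Trib3*, a pseudokinase that acts downstream of ATF4, had 0, 3 and 4 counts in *Cryaa*-WT and 3904, 1349 and 851 counts in *Cryaa*-R49C-homo (adjusted p = 3.17e-08). *Atf5* was at 4.52, 5.88 and 2.52 CPM in WT and at 11.8, 78.2 and 70.8 CPM in homo (3.63, adjusted p = 0.000241), with replicate 1 the lowest of the homo libraries. *Cebpg*, a C/EBP partner of ATF4, rose (1.37, adjusted p = 0.00746), and *Eif2ak2*, an eIF2α kinase, fell (-1.09, adjusted p = 0.034).

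In *Cryaa*-R49C-homo against *Cryaa*-R49C-het, the folate list had 0 calls in edgeR and in DESeq2, and 2 genes at an unadjusted p under 0.05 in edgeR. *Gpt2* (1.68) and *Aldh4a1*, an enzyme of proline breakdown (1.12), rose and *Asl* fell (-0.90) among the proline, glutamate and aspartate enzymes. *Cth* (2.46) and *Slc1a4* (1.62) rose and *Serinc2* (-1.89) fell, and 5 regulators rose and 1 fell, where 4.69% of all tested genes were higher and 3.63% lower. With homo replicate 1 left out the calls were 7 for the folate list, 8 for the proline, glutamate and aspartate list and 6 for the carriers, beside 4102 of all 13938 tested genes, and without *Cryaa*-R49C-het replicate 3 or homo replicate 3 the proline, glutamate and aspartate list had 0. In the het comparison of the *Cryaa* line and in all 3 comparisons of the *Cryab* line, 0 genes of these 5 lists passed the threshold in edgeR or in DESeq2, and the 5 lists held between 0 and 4 genes at an unadjusted p under 0.05 in edgeR. In *Cryab*-R120G-homo against WT, where 6.1% of all tested genes were at such a p, these included 4 of 13 regulators (list median -0.26), 3 of 14 carriers (0.40) and 3 of 18 enzymes of proline, glutamate and aspartate metabolism (-0.17). In *Cryab*-R120G-het against WT (3.82% of all tested genes) they included 3 of 13 regulators (-0.27). The difference between the lines passed for *Gpt2* (2.70), *Slc1a4* (1.93) and 6 regulators, all higher in the *Cryaa* line, where 2.91% of all tested genes passed (1.16% higher). With 1 of the 12 libraries left out, the regulator calls ran from 4 to 7. *Gpt2* was the single call of its list, which had 0 calls without *Cryaa*-WT replicate 2 or 3, *Cryaa*-R49C-homo replicate 3, *Cryab*-WT replicate 3 or *Cryab*-R120G-homo replicate 1 or 2, and 2 without *Cryab*-WT replicate 1. Without *Cryaa*-R49C-homo replicate 1, a fit that called 1812 of all 13938 tested genes, that list had 4 calls, the carriers 5 and the folate enzymes 3, and the folate enzymes had 1 without *Cryab*-WT replicate 1 or *Cryab*-R120G-homo replicate 2. Between the WT lenses of the lines, with TMM scaling, 2 of 21 folate enzymes were higher and 4 lower at day 14, and 4 of 18 enzymes of proline, glutamate and aspartate metabolism were higher, where 11.7% of all tested genes were higher and 11.5% lower. The folate calls fell from 6 to 3 without *Cryaa*-WT replicate 3 or *Cryab*-WT replicate 2. *Srr* (serine racemase, 0.84) and *Sdsl* (0.96) were higher, and the carrier *Slc38a1* was lower (-1.32). The carriers had 4 calls without *Cryab*-WT replicate 1 and 2 without *Cryab*-WT replicate 2. Among the 13 regulators 3 were higher and 1 lower, and the calls fell from 4 to 2 without *Cryaa*-WT replicate 1 or *Cryab*-WT replicate 1 and to 1 without *Cryaa*-WT replicate 2 or 3. In *Cryab*-WT replicate 1 the regulator *Atf3* had 1231 counts, against 5 and 3 in the other *Cryab*-WT libraries.

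Markers of other cells were summed in each library beside these results. In *Cryaa*-WT and *Cryaa*-R49C-homo the 8 macrophage and microglia markers summed to between 7.16 and 16.9 CPM and between 17.5 and 36.4 CPM, and 2 of 8 rose (*Aif1* and *C1qa*). All 8 had a log2 fold change above 0 (median 1.38), and 6 had an unadjusted p under 0.05 in edgeR, against 24.3% of all tested genes. The 8 vessel and mesenchyme markers summed to between 24.3 and 45 CPM and between 22 and 70.4 CPM, and *Cdh5* rose and *Col1a2* fell. Of these 8, 6 had a log2 fold change above 0. Homo replicate 1, which had the highest *Asns*, *Psat1* and *Mthfd2*, had the lowest sum of both lists among the homo libraries, and it was also the lowest homo library for *Mthfd1l* and *Aldh1l2*. The lens fibre markers summed to between 139041 and 206369 CPM in WT and between 58368 and 168820 CPM in homo, and 3 of 10 tested fell. Of the 10, 0 had a log2 fold change above 0 (median -0.78), and 8 had an unadjusted p under 0.05 in edgeR. The sums of the 6 lens epithelium markers (103 to 122 and 86.2 to 97.6 CPM) and of the 8 pigment and ciliary epithelium markers (18.6 to 36 and 9.73 to 15.2 CPM) were lower in each homo library than in each WT library. Of these markers 1 (*Gja1*) and 2 (*Mlana* and *Pmel*) were called lower, while 3 of 6 and 2 of 8 had a log2 fold change above 0. Photoreceptor (8.17 to 34 and 12.5 to 22 CPM), inner retina and Muller glia (68.5 to 175 and 69.7 to 123 CPM) and erythroid markers (36.8 to 57.8 and 41.5 to 150 CPM) had 0 calls in edgeR (marker lists were not counted with other tools), with 0, 1 and 0 genes at an unadjusted p under 0.05. The part of these markers in the changes of the 10 genes was not tested. In the *Cryab* line the pigment markers summed to between 6.61 and 8.31 CPM in WT, where *Tyr* was at 0, and between 18 and 32.4 CPM in homo. The photoreceptor markers summed to 819, 22.3 and 84.9 CPM in *Cryab*-WT, where replicate 1 stood apart, and to 1226, 625 and 208 CPM in *Cryab*-R120G-homo, and the inner retina markers to 90, 18.7 and 30.1 CPM and to 213, 124 and 56 CPM. Without *Cryab*-WT replicate 1, 0 of the 10 genes passed in *Cryab*-R120G-homo against WT and 4 passed in the interaction. These 4 were not all the same genes as before. *Aldh1l2* lost its call (2.18, adjusted p = 0.0814, edgeR) and *Mthfd1l* gained one (1.37, adjusted p = 0.0274).

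The genes whose pattern was most like that of the 10 genes were found by the Pearson correlation of log2 CPM with the mean z-score of the 10, over the 18 libraries after the mean of each line was removed. They were *Aen* (r = 0.96), *Sec22b* (0.93), *1300017J02Rik* (0.92), *Derl1* (0.92) and *Bud31* (0.91). These correlations describe libraries that share their scaling, and homo replicate 1 was the highest of the 9 *Cryaa* libraries for each of the 5. *Aen* was at 6.77, 6.21 and 4.69 CPM in *Cryaa*-WT and at 20.2, 8.11 and 8.1 CPM in *Cryaa*-R49C-homo. Each of the 10 genes is part of that mean, which raises its own r, and r was 0.95 for *Psat1*, 0.94 for *Asns*, 0.87 for *Mthfd2* and 0.85 for *Aldh18a1*, and it was -0.10 for *Shmt2* and -0.50 for *Pycr1*.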

How the data were processed

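Poly-A RNA of 18 pools of whole lenses was sequenced as single reads. Groups (6, with 3 libraries apiece) follow the sample titles, since in 6 *Cryab* libraries the genotype label gives *Cryaa* instead. Reads were aligned by the authors with STAR 2.0.4b to GRCm38, and uniquely aligned reads were counted per gene with featureCounts 1.4.5 (versions per the labels' processing notes), and the deposited counts are not normalized. The strand setting is not given in the sources used here. The count table had 41422 lines for 40800 identifiers, and 1 of each set of identical lines was kept. The deposited RPKM values, read counts the authors scaled to library size and gene length, were used only to compare genes within a group. Deposited CPM and log2 tables were not used. A few genes are not reported here.

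The 10 genes, the lists and the tests were chosen with earlier results of these data known. edgeR 4.0.16 in R 4.3.3 kept 13938 genes with filterByExpr, scaled them with TMM and fitted 1 model with 6 groups to the 18 libraries (quasi-likelihood, robust, 10.2 prior degrees of freedom). Keeping all 26547 genes with a count made the prior infinite. Adjusted p-values are Benjamini-Hochberg values over all tested genes of a contrast, and the standard error is the log2 fold change over the root of the F statistic. Depth limits the precision of the rarest genes. Alternatives were library size alone, DESeq2 1.42.0, all genes with a count, a likelihood-ratio test with robust dispersions, only the groups compared, a replicate block and leaving out each library. Log2 ratios to paralogues used 0.5 added to each count, with 2 as the alternative. Positions came from GENCODE vM21. Named genes were all 10 genes, their paralogues, from each pathway list at most the 3 largest rises and 3 largest falls past the threshold in *Cryaa*-R49C-homo against WT and, where another contrast called 3 or fewer, those, and the 5 most correlated genes.

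The labels number the replicates 1 to 3. After group means were removed, *Cryab*-R120G-homo and *Cryab*-WT libraries of the same number correlated at 0.28, 0.18 and 0.16, so the numbers may mark pairs in that contrast. In the others at least 1 correlation was not above 0.1. The main fit did not use such pairs in any contrast, and they entered only the replicate block, an alternative fit.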

Additional observations from a re-analysis of the deposited data

Results flagged for a closer look

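In the edgeR interaction test, the homo effect was larger in the *Cryaa* line than in the *Cryab* line for 4 of the 10 genes. Of all tested genes 2.91% passed (1.16% higher in the *Cryaa* line). The log2 differences were 2.91 for *Mthfd2*, 2.49 for *Aldh1l2*, 2.44 for *Asns* and 1.49 for *Aldh18a1*. The calls of *Aldh1l2* and *Asns* were lost in most fits that left out 1 library, and that of *Asns* also with library size alone or only the groups compared. The lines also differ in age (2 and 14 days), so that line and age cannot be told apart. Groups of 3 libraries were not tested for outliers.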

How the results depend on the processing

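In *Cryaa*-R49C-homo against *Cryaa*-WT, 7 of the 10 genes passed the threshold with any 1 library left out, with DESeq2, with all genes with a count, with the likelihood-ratio test and with the replicate block, against 8 with library size alone and 6 with only the groups compared. In the het comparisons and in every comparison within the *Cryab* line the number was 0 under every alternative. For the interaction it ran from 2 to 6 over the fits that left out 1 library and from 3 (library size alone, or only the groups compared) to 6 (likelihood-ratio test) under the others. Between the WT lenses it ran from 1 to 3 over the fits that left out 1 library, was 4 with DESeq2, the likelihood-ratio test or only the groups compared, and with library size alone 8 passed, all lower at day 14, as did 11596 of all 13938 tested genes (11439 lower). That setting turned the direction of 9 genes, to log2 fold changes of -1.36 for *Asns*, -0.27 for *Phgdh*, -0.75 for *Psat1*, -1.15 for *Psph*, -1.30 for *Shmt2*, -0.56 for *Mthfd2*, -1.34 for *Mthfd1l*, -1.39 for *Pycr1* and -0.97 for *Aldh18a1*, as it moved the median of all tested genes to -1.61. Of 1020 values of the 10 genes under alternatives, 883 kept their direction and side of the threshold, 38 lost a call, 13 gained a call, these 9 turned, and 77 changed sign without being called in either fit (lowest adjusted p 0.194, edgeR). The replicate block removed the call of *Psat1* in homo against het (0.82, adjusted p = 0.0529, edgeR) and of *Aldh1l2* in the interaction, added *Mthfd1l* there, and changed no other call of the 10 genes. In the *Cryaa* comparison of homo with WT, each homo library correlated best with the WT library of its own number, a hint from the data and not from the design.

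With library size alone, 1884 of the 2138 genes called in *Cryaa*-R49C-homo against *Cryaa*-WT were higher, against 679 of 1364 with TMM, and the median of all tested genes moved to 0.41. The genes called in that comparison numbered 473 with only the groups compared, 2884 with the likelihood-ratio test and 3085 without homo replicate 1. In *Cryab*-R120G-homo against *Cryab*-WT they numbered 7, against 302 with all genes with a count, 257 with the likelihood-ratio test, 18 with the block and 19 with DESeq2. Adding 2 in place of 0.5 to the counts, or leaving out a library, moved 0 of 56 paralogue ratios beyond the spread between libraries. Counts of called genes in the pathway lists moved by over 1.5 times in 85 of 510 cases. The least expressed gene, *Aldh1l2*, had 1 to 11 counts in the *Cryab* libraries, so that only large changes of it could be seen there, and 3 pools a group limit every interval.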
